A study of Mus musculus with 12 samples.

Results

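The genes described here are 8 genes that mark retinal ganglion cells (RGCs) or their identity, chosen by name and not by their values: the transcription factors Pou4f1, Pou4f2, Pou4f3, Isl2, Ebf1 and Ebf3, the RNA-binding protein Rbpms and the vesicular glutamate transporter Slc17a6. All 8 were found among the 24340 rows of the expression table, and all 8 were among the 18509 rows above 0 in at least 1 library. RNA was sequenced from whole retinas of 6 p16-3MR mice aged 12 to 16 weeks, both eyes of each mouse, 3 days after the intraocular pressure (IOP) of one eye had been held at 85 to 90 mm Hg for 60 min. Mice 3, 4 and 6 received no ganciclovir (GCV) and gave the groups CTRL (contralateral eye) and IOP. Mice 1, 2 and 5 received GCV at 25 mg/kg daily and gave the groups CTRL-GCV and IOP-GCV, with 3 retinas in each group. For control mice in general the paper names a sham treatment, with PBS or vehicle, and does not say which these mice had. Every animal, controls included, carried the p16-3MR transgene, in which p16 regulatory sequence drives 2 reporters joined to a viral kinase, so that GCV kills the cells in which the transgene is active. No group without the transgene was among these libraries, and the control eye is not from an untouched animal. The question these groups address is what raised pressure does to the retina, and whether killing p16-expressing cells alters it.

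RGCs are the output neurons of the retina. Their axons form the optic nerve, and they are the cells that are lost in glaucoma. In the developing retina the factor Atoh7 makes progenitors able to become RGCs, and the POU-domain factors of the Pou4f (Brn3) family together with the LIM-homeodomain factors Isl1 and Isl2 then drive and maintain the RGC program. Pou4f1 (Brn3a) and Rbpms are the nuclear and cytoplasmic proteins most used to count RGCs, and Slc17a6 (VGLUT2) loads glutamate into synaptic vesicles of RGCs.

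Values are FPKM (fragments per kilobase of exon, scaled to the size of the library), which allow levels of different genes to be set side by side. The deposited table does not name its unit, which was inferred from the values. The libraries summed to 394758 to 529896 FPKM and held an estimated 4020000 to 9060000 fragments, with the lowest number in the IOP retina of mouse 6. That library also had the fewest genes above 0, 14844 against 16044 to 16593 in the others. The tissue label was borne out by its markers: the 12 rod genes summed to between 39520 and 72235 FPKM in every library. Because whole retinas were sequenced, fewer RGCs and less RNA per RGC cannot be told apart in any value below.

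Promoter sequences of 3 genes are shown to place the genes on the genome before their values are given: Pou4f2, which had the largest log2 difference of the 8 over the 6 eye pairs, and Ebf3 and Slc17a6, in whose promoters a searched motif was found. They are 250 bases ending at an annotated start, from RefSeq (GRCm38.p6, the same assembly as mm10). A set of 3 motifs was searched on both strands: ATTAAT and TAATTA, cores of sites bound by POU-domain and LIM-homeodomain factors, which can overlap each other, and CCCNNGGG, a core of sites bound by Ebf factors. Capitals mark the matches, lower case marks the rest. The Pou4f2 window (chr8:78436648-78436897, minus strand, upstream of the gene) held no match, and 70.8% of its bases were G or C against a median of 52.4% over all 32851 windows.
Pou4f2: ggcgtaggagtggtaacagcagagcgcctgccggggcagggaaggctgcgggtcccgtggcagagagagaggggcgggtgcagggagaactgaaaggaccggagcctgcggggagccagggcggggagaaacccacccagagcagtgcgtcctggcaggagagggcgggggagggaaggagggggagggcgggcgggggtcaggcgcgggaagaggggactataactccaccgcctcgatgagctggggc
The Ebf3 window (chr7:137314446-137314695, minus strand, within the annotated span of the gene and outside its exons) held a CCCNNGGG match near the annotated start.
Ebf3: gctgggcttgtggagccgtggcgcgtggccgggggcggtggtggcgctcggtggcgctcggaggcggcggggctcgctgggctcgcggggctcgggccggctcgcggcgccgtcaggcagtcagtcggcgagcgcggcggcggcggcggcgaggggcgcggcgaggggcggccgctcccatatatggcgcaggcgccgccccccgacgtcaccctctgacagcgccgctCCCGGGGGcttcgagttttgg
The Slc17a6 window upstream of the gene (chr7:51621580-51621829, plus strand) held no match and is not shown. The window of an internal start of Slc17a6 (chr7:51624387-51624636, plus strand, intronic to the longer transcript) held ATTAAT and TAATTA overlapping in the run ATTAATTA.
Slc17a6: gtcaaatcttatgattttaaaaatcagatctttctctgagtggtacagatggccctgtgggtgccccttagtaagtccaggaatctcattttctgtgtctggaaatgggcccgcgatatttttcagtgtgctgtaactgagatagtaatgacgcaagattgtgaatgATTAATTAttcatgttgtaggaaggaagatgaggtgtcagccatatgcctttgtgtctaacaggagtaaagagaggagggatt
Windows of 6 of the 8 genes, all but Pou4f3 and Rbpms, were used, 8 windows in all. Of these 8, 1 held ATTAAT, 1 held TAATTA and 2 held CCCNNGGG (Ebf3 and Isl2), where 4.39%, 4.84% and 11.8% of all windows did. A match describes letters only, and it says nothing about binding.

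In the 6 control retinas, with or without GCV, Rbpms had the highest level of the 8 genes, with a mean of 37.2 FPKM ± 9.12 (SD, n = 6), followed by Slc17a6 at 25.4 ± 8.33. The transcription factors lay lower. Pou4f1 stood at 12.2 FPKM ± 3.67, Ebf3 at 10.8 ± 2.15, Ebf1 at 10.0 ± 2.67, Pou4f2 at 7.12 ± 1.85, Isl2 at 5.06 ± 1.27 and Pou4f3 at 3.39 ± 1.55. The order of Rbpms, Slc17a6 and Pou4f1 held in all 6 control retinas, as did the order of Ebf1, Pou4f2, Isl2 and Pou4f3. Pou4f1 was above Ebf3 in 5 of the 6 and Ebf3 above Ebf1 in 4 of the 6, and the means of these 3 genes lay within 1 SD of each other. The control retina of mouse 2, a GCV mouse, had the highest value of all 12 libraries for each of the 8 genes.

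Pou4f1 was at 9.07, 9.16 and 12.8 FPKM in the CTRL retinas of mice 3, 4 and 6 and at 1.67, 10.5 and 4.88 FPKM in their IOP retinas. In the GCV mice 1, 2 and 5 it was at 11.0, 19.0 and 11.9 FPKM in control eyes and 5.94, 3.80 and 2.70 FPKM in IOP eyes. Without GCV the groups overlapped, since the IOP retina of mouse 4 was above the control retina of the same mouse. With GCV every IOP retina was below every control retina, as held for 15.3% of all genes tested.

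Pou4f2 (Brn3b), the earliest of the family to be switched on in new RGCs, was at 5.78, 5.91 and 7.90 FPKM in CTRL and 0.703, 5.78 and 0.573 FPKM in IOP retinas of mice 3, 4 and 6. In mice 1, 2 and 5 it was at 5.88, 10.5 and 6.74 FPKM in control eyes and 3.14, 2.24 and 0.934 FPKM in IOP eyes. The IOP eye was the lower one in all 6 mice, although in mouse 4 it kept 97.8% of the level of the control eye, against 7.26% in mouse 6 and 12.2% in mouse 3. The IOP value of mouse 6 rests on about 7 fragments (estimated at 6.99) and that of mouse 3 on about 17 (16.9), where control retinas had 135 to 244.

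Pou4f3 (Brn3c), expressed in a smaller set of RGCs and needed for inner-ear hair cells, was at 1.84, 3.69 and 2.22 FPKM in CTRL and at 0.385, 1.40 and 0 FPKM in IOP retinas. In the GCV mice it was at 3.10, 6.24 and 3.27 FPKM in control and 1.38, 0.592 and 0.467 FPKM in IOP eyes. In mouse 4 it stood at 37.9% of the control eye, the lowest of the 8 genes in that mouse, followed by Isl2 at 72.7%. The value of 0 belongs to the library with the lowest estimated depth and is listed as such in the table.

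Isl2, a LIM-homeodomain factor of RGCs that project to the opposite side of the brain, was at 3.97, 4.75 and 4.49 FPKM in CTRL and 0.598, 3.46 and 1.18 FPKM in IOP retinas. With GCV it was at 4.56, 7.56 and 5.01 FPKM in control and 2.91, 2.67 and 0.677 FPKM in IOP eyes. Like Pou4f2 and Pou4f3, it had every IOP retina below every control retina in both sets of mice. The same held for 8.81% of all genes tested without GCV and 15.3% with GCV. For Pou4f2 without GCV the gap was near nil, at 5.775 FPKM (IOP, mouse 4) against 5.784 FPKM (CTRL, mouse 3).

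Ebf1, an early B-cell factor also found in newborn RGCs, was at 7.54, 9.37 and 8.96 FPKM in CTRL and 2.0, 10.2 and 2.38 FPKM in IOP retinas. In the GCV mice its control values were 8.90, 15.2 and 10.2 FPKM and its IOP values 5.78, 3.69 and 2.17 FPKM. Its relative Ebf3 was at 9.05, 10.8 and 8.65 FPKM in CTRL and 1.67, 10.1 and 4.34 FPKM in IOP retinas, and at 9.94, 14.5 and 11.8 FPKM against 5.94, 4.61 and 2.61 FPKM with GCV. For both, mouse 4 alone kept the control level.

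Rbpms, an RNA-binding protein found in almost all RGCs, was at 26.7, 33.4 and 40.8 FPKM in CTRL and 11.1, 36.0 and 10.1 FPKM in IOP retinas, and with GCV at 32.7, 53.3 and 36.3 FPKM in control and 22.7, 14.2 and 13.6 FPKM in IOP eyes. Slc17a6 was at 17.7, 23.6 and 20.0 FPKM in CTRL and 3.64, 26.5 and 6.31 FPKM in IOP retinas, and with GCV at 21.3, 40.4 and 29.1 FPKM in control and 17.2, 10.4 and 8.90 FPKM in IOP eyes. The plot of values by retina shows the same shape in all 8 panels, with 5 mice going down and mouse 4 flat or nearly so except for Pou4f3 and Isl2.

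**Figure D1:**
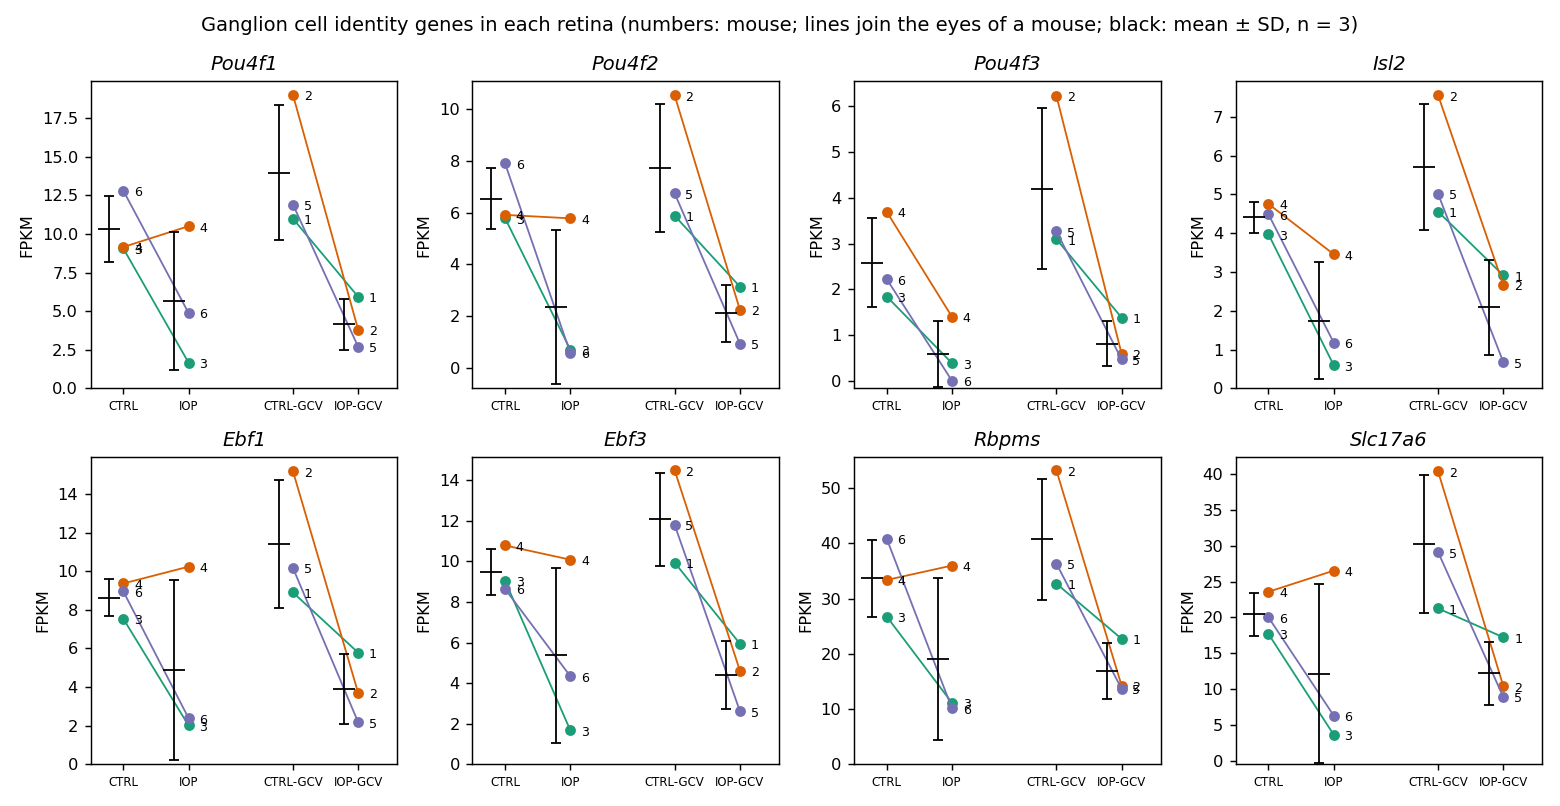
FPKM (y axis) of the 8 genes in each retina of the 4 groups (x axis). Points are single retinas numbered by mouse, lines join the eyes of a mouse, and black bars are the mean ± SD of 3 retinas. With GCV all 8 genes had every IOP retina below every control retina (15.3% of all genes tested), and without GCV only Pou4f2, Pou4f3 and Isl2 of the 8 did (8.81% of all genes tested).

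Read as the percentage of the FPKM of the other eye of the same animal, the median over the 8 genes was 19.5% in mouse 3, 102.8% in mouse 4 and 26.4% in mouse 6, and 61.9% in mouse 1, 25.1% in mouse 2 and 21.7% in mouse 5. In 5 mice all 8 genes were lower in the IOP eye, and in mouse 4 this held for 4 of 8. Pou4f2, Pou4f3, Isl2 and Ebf3 were lower in the IOP eye of all 6 mice, as were 10.1% of all genes tested. All 8 genes were lower in at least 5 of 6 mice, as were 23.7% of all genes tested. In the 5 mice other than mouse 4, all 8 were lower, against 14.1% of genes tested. The smallest falls outside mouse 4 were in mouse 1, where the 8 genes stood between 44.6% (Pou4f3) and 81.0% (Slc17a6) of the control eye.

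**Figure D2:**
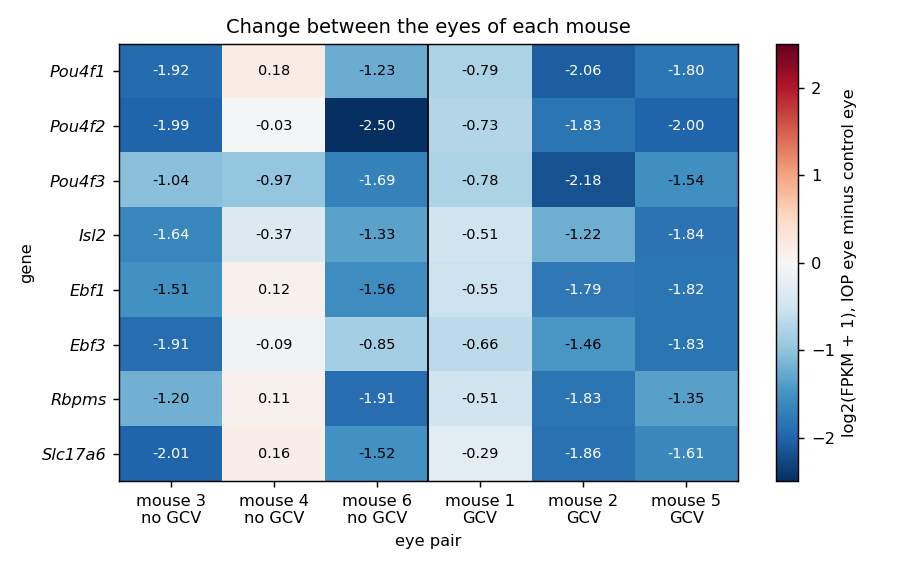
Difference in log2(FPKM + 1) between the IOP eye and the control eye (colour and number in each cell) for the 8 genes (y axis) in each of the 6 mice (x axis). Mouse 4 is near 0 for all but Pou4f3 and Isl2, and mouse 1 has smaller differences than mice 2, 3, 5 and 6 for all 8 genes.

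Differences were tested with limma on log2(FPKM + 1) over all 18509 genes, with Benjamini-Hochberg adjustment and a gene called at an adjusted p under 0.05. Averaged over both sets of mice, 7 of the 8 genes fell in IOP retinas, while 5.44% of all genes tested were called lower (1006 lower and 1252 higher, 12.2% in either direction). The median log2 difference of the 8 genes was -1.19, against 0.01 over all genes tested. Pou4f2 had the largest, at -1.51 ± 0.36 (SE; limma adjusted p = 0.0281), then Pou4f3 at -1.37 ± 0.25 (limma adjusted p = 0.0102) and Pou4f1 at -1.27 ± 0.32 (limma adjusted p = 0.0345). Ebf1 differed by -1.18, Isl2 by -1.15, Ebf3 by -1.13 and Rbpms by -1.12 on the log2(FPKM + 1) scale, with limma adjusted p-values of 0.0435, 0.0325, 0.0407 and 0.0382. Slc17a6 differed by -1.19 ± 0.38 and did not pass (limma adjusted p = 0.0669). The added 1 FPKM makes these differences smaller than the ratios of FPKM for the genes of low level, such as Pou4f3.

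The calls changed with the fit. Both eyes came from the same animal, and with the mouse as a block only Pou4f3 (limma adjusted p = 0.0219) and Isl2 (limma adjusted p = 0.0449) of the 8 genes were called, where 2.47% of all genes tested were called lower. The other 6 then had adjusted p-values from 0.0535 (Pou4f2) to 0.0728 (Slc17a6), with 0.0548 for Pou4f1, 0.0536 for Ebf3, 0.0573 for Ebf1 and 0.0627 for Rbpms. The number of the 8 genes called was 8 without the IOP retina of mouse 4, 7 without the IOP-GCV retina of mouse 1, 3 without that of mouse 2, 2 without the IOP retina of mouse 3 or of mouse 6, and 1 (Pou4f3) without any one control retina or without the IOP-GCV retina of mouse 5. The share over the whole table also changed: 13.6% of all genes tested were called lower in the fit that called all 8, 5.03% in the fit that called 7, 3.12% in the fit that called 3, 1.73% and 3.42% in those that called 2, and 0.945% to 1.71% in those that called 1. Pou4f3 was called in all 12 of these fits, and all 8 genes kept a negative difference in every one.

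**Figure D3:**
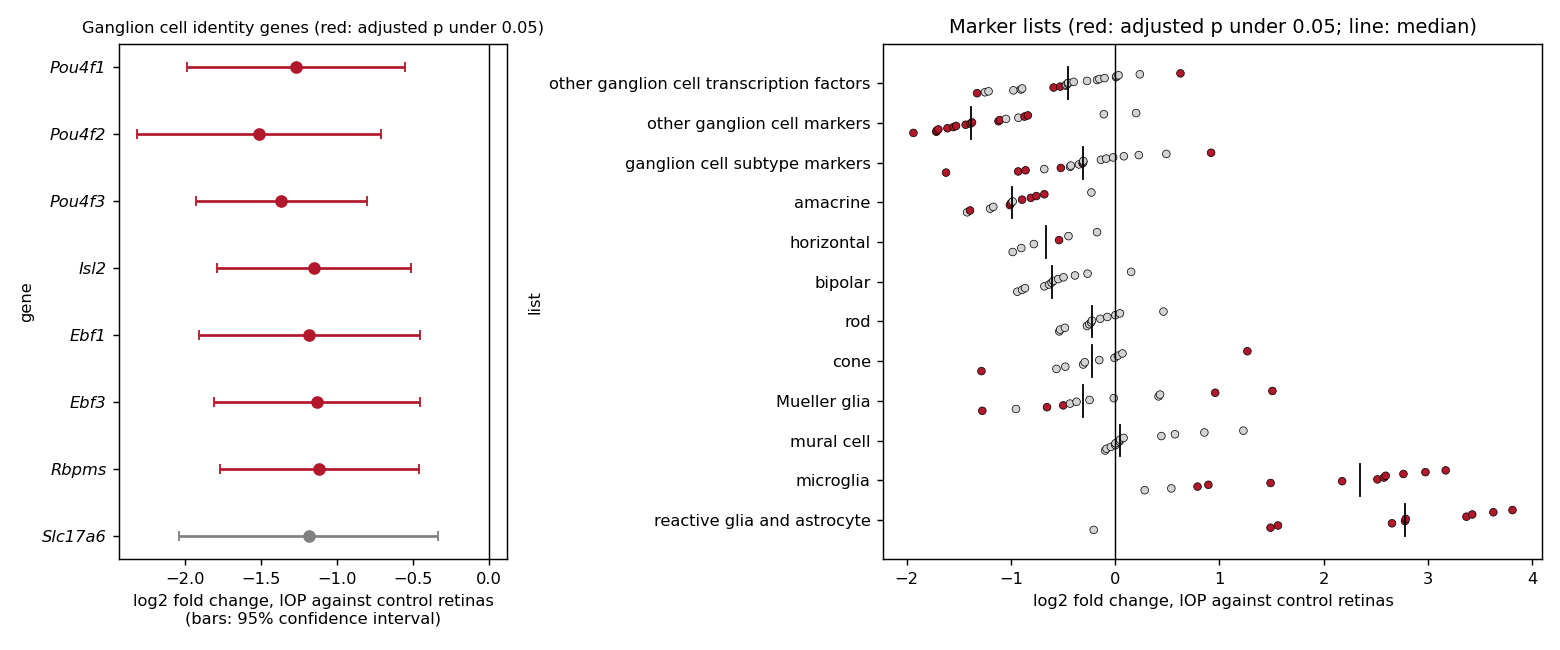
Log2 difference between IOP and control retinas over 6 eye pairs (x axes, log2(FPKM + 1) scale). The left panel gives the 8 genes with 95% confidence intervals, all below 0, and 7 of them in red for an adjusted p under 0.05. The right panel gives each gene of 12 marker lists as a point, red where called, with the median as a line: other RGC markers lie at a median of -1.38 and microglial genes at 2.35.

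Taken alone, neither set of mice gave a call for any of the 8 genes. Without GCV the log2 differences ran from -0.95 (Ebf3, limma adjusted p = 0.268) to -1.51 (Pou4f2, limma adjusted p = 0.189), with 0 of 8 called where 0.232% of all genes tested were called lower (1.65% in either direction). Pou4f2, Pou4f3, Isl2 and Rbpms had unadjusted p-values under 0.05, which 9.42% of all genes tested had in the lower direction. Every IOP retina was below every CTRL retina for Pou4f2, Pou4f3 and Isl2, and for 8.81% of all genes tested. Without the IOP retina of mouse 4, all 8 were called lower in this comparison, and so were 8.07% of all genes tested (1493 genes, against 43 with all libraries). Without any other library none of the 8 was. The differences themselves moved with single libraries: that of Ebf3 was -0.44 when the IOP retina of mouse 3 was left out and -1.47 when that of mouse 4 was, that of Pou4f1 -0.45 and -1.5, and that of Slc17a6 -0.59 and -1.87. For all 8 genes the difference was largest without the IOP retina of mouse 4 and smallest without that of mouse 3 or mouse 6. With the mouse as a block 0 of 8 were called, where 0.0162% of all genes tested were called lower.

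With GCV the log2 differences ran from -1.19 (Isl2, limma adjusted p = 0.158) to -1.55 (Pou4f1, limma adjusted p = 0.119), with 0 of 8 called and 0.157% of all genes tested called lower (1.8% in either direction). Pou4f3 came closest, at -1.5 ± 0.36 (SE; limma adjusted p = 0.0659), and was the 1 gene of the 8 called when only genes of at least 1 FPKM in 3 libraries were tested, where 0.283% of the 13411 genes kept were called lower. All 8 had unadjusted p-values under 0.05, as did 9.15% of all genes tested in the lower direction. For all 8 genes every IOP-GCV retina was below every CTRL-GCV retina, which held for 15.3% of all genes tested. With the mouse as a block 0 of 8 were called, where 0.027% of all genes tested were called lower.

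The difference between the effects with and without GCV was tested as an interaction. It was called for 0 of all 18509 genes by limma (358, or 1.93%, at an unadjusted p under 0.05), and for none of the 8, of which 0 had an unadjusted p under 0.05. The log2 values (effect with GCV minus effect without) lay between -0.56 for Pou4f1, with a 95% confidence interval from -2.0 to 0.88, and -0.01 for Pou4f2, with an interval from -1.62 to 1.59. The interval for Pou4f3 ran from -1.39 to 0.85, for Isl2 from -1.35 to 1.20 and for Slc17a6 from -1.83 to 1.58. These 6 mice thus leave room for effects of GCV of up to the bounds given. All 8 values were negative, and without the IOP retina of mouse 4 all but that of Pou4f1 turned positive, up to 0.67 for Pou4f2.

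GCV itself was compared between mice, within IOP retinas and within control retinas, and limma called 0 genes in both (774, or 4.18%, and 295, or 1.59%, at an unadjusted p under 0.05). In IOP retinas the log2 difference of IOP-GCV from IOP lay between -0.18 (Pou4f1, 95% confidence interval -1.20 to 0.83) and 0.38 (Slc17a6, -0.82 to 1.58). Without the IOP retina of mouse 4 it ran from 0.33 (Pou4f1) to 1.13 (Slc17a6). Without that of mouse 3 it was -0.73 for Pou4f1 and -0.16 for Slc17a6. In control retinas all 8 genes had a positive difference of CTRL-GCV from CTRL, from 0.19 (Pou4f2) to 0.52 (Pou4f3, 95% confidence interval -0.27 to 1.31), and none passed, with an adjusted p of 1 for each by limma. In both comparisons 0 of the 8 had an unadjusted p under 0.05. Without the control retina of mouse 2 these differences lay between -0.03 (Pou4f2) and 0.28 (Slc17a6).

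Within the Pou4f family, Pou4f1 made up 48.8% to 55.9% of the summed FPKM in CTRL retinas, Pou4f2 31.5% to 34.7% and Pou4f3 9.69% to 19.7%. In IOP retinas the sum was 2.75, 17.7 and 5.46 FPKM in mice 3, 4 and 6, and Pou4f1 took 60.5%, 59.4% and 89.5% of it. In IOP-GCV retinas Pou4f1 took 56.8%, 57.3% and 65.8%, against 55.1%, 53.2% and 54.3% in the control eyes of mice 1, 2 and 5. The share of Pou4f1 was thus higher in the IOP eye in all 6 mice. The ratio of Pou4f2 to Pou4f1 lay between 0.616 and 0.645 in CTRL retinas and between 0.117 and 0.550 in IOP retinas, where the value of 0.117 belongs to mouse 6 and its few Pou4f2 fragments. With GCV this ratio overlapped, at 0.534 to 0.566 in control and 0.347 to 0.590 in IOP retinas, and in mouse 2 it was higher in the IOP eye (0.590 against 0.553). These shares are a description without a test.

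**Figure D4:**
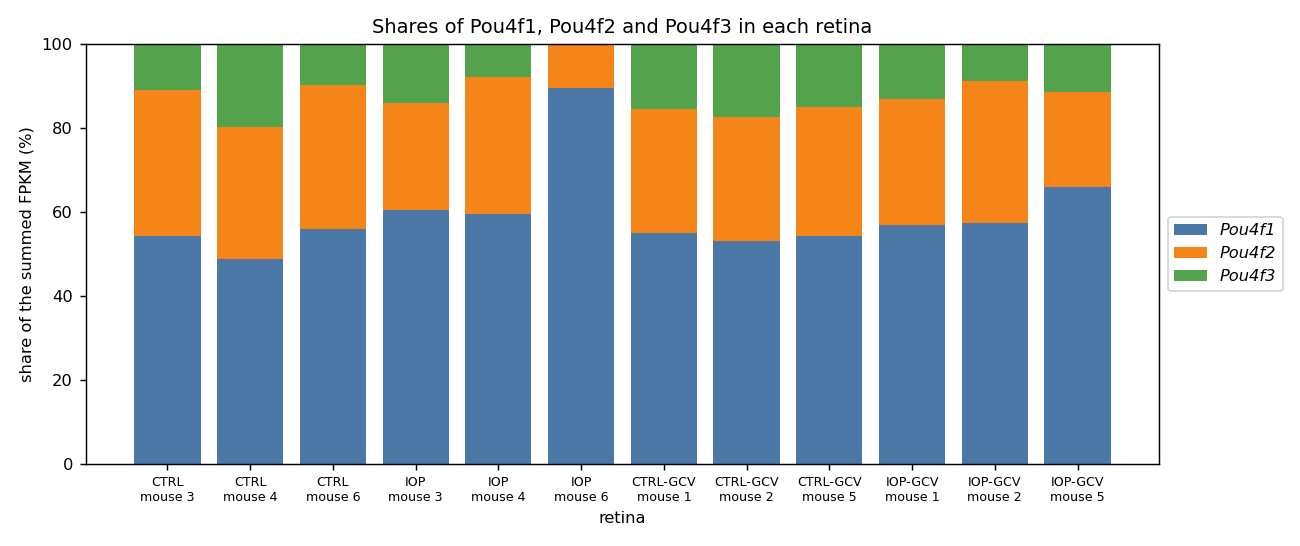
Share of Pou4f1, Pou4f2 and Pou4f3 in their summed FPKM (y axis, percent) in each of the 12 retinas (x axis, by group and mouse). Pou4f1 takes 48.8% to 55.9% in control retinas and 56.8% to 89.5% in IOP retinas, and Pou4f3 is at 0 in the IOP retina of mouse 6.

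The nearest relatives of these genes were set beside them. Isl1, the LIM-homeodomain factor shared by RGCs, ON bipolar cells and starburst amacrine cells, was at 21.6 FPKM ± 2.71 (SD, n = 3) in CTRL and 12.7 ± 9.95 in IOP retinas, and differed by -0.89 (log2) over the 6 eye pairs without passing (limma adjusted p = 0.0811). The ratio of Isl2 to Isl1 lay between 0.179 and 0.247 in the 6 control retinas and between 0.0855 and 0.164 in the 6 IOP retinas, with no overlap and with mouse 4 among the IOP retinas. Rbpms2, a close relative of Rbpms that is also found in RGCs, fell by 1.44 on the log2 scale (limma adjusted p = 0.0347, and 0.0441 with the mouse as a block). The ratio of Rbpms to Rbpms2 lay between 1.54 and 1.85 in CTRL and between 1.91 and 2.42 in IOP retinas, and these ranges overlapped with GCV (1.48 to 2.11 and 1.72 to 3.69). Ebf2 was at 0.126 FPKM ± 0.0430 (SD, n = 3) in CTRL retinas, where Ebf1 stood at 8.62 ± 0.960. Ebf4, the remaining Ebf gene, was at 2.40 FPKM ± 0.353 in CTRL retinas and did not pass (log2 difference -0.47, limma adjusted p = 0.241).

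The other vesicular glutamate transporters differed in level from Slc17a6. Slc17a7 (VGLUT1), used by photoreceptors and bipolar cells, was at 1066 FPKM ± 115 (SD, n = 3) in CTRL retinas and 938 ± 238 in IOP retinas, with a log2 difference over 6 eye pairs of -0.13 that did not pass (limma adjusted p = 0.684). Slc17a8 (VGLUT3), used by a type of amacrine cell, was at 3.05 FPKM ± 0.315 in CTRL retinas and fell by 0.49 on the log2 scale (limma adjusted p = 0.0382, and 0.0745 with the mouse as a block). The level of Slc17a6 relative to Slc17a7 was 0.0153 to 0.0251 in CTRL retinas and 0.00383 to 0.0382 in IOP retinas, the highest being in mouse 4. With GCV these ranges did not overlap, at 0.0206 to 0.0457 in control and 0.00925 to 0.0182 in IOP retinas.

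Of 22 other transcription factors of RGCs, 3 fell and 1 rose over the 6 eye pairs, with a median log2 difference of -0.45. With the mouse as a block 1 fell and 1 rose. For this list and the RGC lists that follow, the shares over all genes tested were 5.44% lower and 6.76% higher. With the mouse as a block 2.47% were called lower. Satb1, a chromatin organiser of direction-selective RGCs, fell by 0.59 on the log2 scale (limma adjusted p = 0.0340), and Tbx20, a T-box factor, fell by 0.53 from about 1 FPKM (limma adjusted p = 0.0428, and 0.0875 with the mouse as a block). Sox11, a factor of newborn RGCs that is switched on again after axon injury, rose by 0.63 on the log2 scale, from 0.232 FPKM ± 0.0963 to 1.09 ± 0.810 (SD, n = 3) without GCV and from 0.293 ± 0.0725 to 0.935 ± 0.385 with GCV (limma adjusted p = 0.0434). Myt1l, a neuronal zinc-finger factor, differed by -1.25 and did not pass (limma adjusted p = 0.0513). Of the 3 most abundant of this list, Isl1 is described above, and Sox12 and Myt1 had log2 differences of 0.01 and -0.15 and did not pass.

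Of 18 other RGC markers, 14 fell, none rose, and the median log2 difference was -1.38; with the mouse as a block 7 fell. The neurofilament genes Nefl and Nefh fell by 1.7 and 1.12 on the log2 scale. The nicotinic receptor subunits Chrna6 and Chrnb3 fell by 1.94 and 1.72, and the surface protein Thy1 by 1.39. Nefh, Chrna6, Chrnb3 and Thy1 were also called with the mouse as a block, and Nefl was not (limma adjusted p = 0.0532). Tubb3, the neuronal tubulin, fell by 0.84, from 114 FPKM ± 5.37 to 66.3 ± 29.0 (SD, n = 3) without GCV. Sncg, the synuclein of RGCs, fell by 1.11, from 402 FPKM ± 52.8 to 253 ± 158 without GCV and from 569 ± 113 to 231 ± 72.3 with GCV, and its call was lost with the mouse as a block (limma adjusted p = 0.0507).

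Of 18 genes that mark RGC subtypes, 5 fell and 1 rose, with a median log2 difference of -0.31, and 4 fell and 1 rose with the mouse as a block. Cartpt, a neuropeptide of direction-selective RGCs, fell by 0.86 (limma adjusted p = 0.0456), and Tusc5 by 1.62 (limma adjusted p = 0.0359, and 0.0504 with the mouse as a block). Cdh6, a cadherin, fell by 0.93 from 1.90 FPKM ± 0.121 to 0.600 ± 0.644 (SD, n = 3) without GCV. Kcng4, a potassium channel subunit used to mark alpha RGCs, rose by 0.92, from 7.32 FPKM ± 1.38 to 17.3 ± 2.52 without GCV and from 9.24 ± 0.967 to 15.7 ± 2.45 with GCV (limma adjusted p = 0.00144). Kcng4 thus moved against the 8 identity genes. Which cells its transcripts came from was not tested.

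Across the 12 retinas the 8 genes varied together: the 28 pairs of genes had Pearson correlations of log2(FPKM + 1) from 0.853 (Pou4f1 with Pou4f3) to 0.981 (Pou4f2 with Ebf1), with a median of 0.936. The 12 points share mice and conditions, and these values are a description. The genes outside the 8 whose log2 values were most alike to the mean of the 8 standardised genes, among 12902 candidates averaging 1 FPKM or more over the libraries, were Rcan2 (r = 0.996, n = 12), Rimkla, Mfsd6, Reps2, Apba1, Chrnb3, Thy1 and Tmod2 (r = 0.993). Because they were picked for their likeness to the 8 over the same retinas, their levels are a description: Rcan2 was at 38.6 FPKM ± 4.52 in CTRL and 19.4 ± 13.0 in IOP retinas (SD, n = 3).

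Some lists of other cell types held genes that passed in the same retinas, and others held none. Over all genes tested 5.44% were called lower and 6.76% higher, and 2.47% lower with the mouse as a block. Of 12 amacrine genes 7 fell (6 with the mouse as a block), with a median log2 difference of -0.99, among them the glycine transporter Slc6a9 (-0.89) and Pax6 (-0.68), which RGCs also express. Of 12 bipolar genes limma called 0 (8 at an unadjusted p under 0.05), with a median of -0.60, and of 12 rod genes 0 (1 at an unadjusted p under 0.05), with a median of -0.23. Horizontal cell genes had a median of -0.66 with 1 of 6 called lower, Lhx1, and 6 at an unadjusted limma p under 0.05. In the cone list 1 of 10 rose (Gnb3, which ON bipolar cells also express) and 1 fell (Arr3), and among 12 Mueller glia genes 2 rose and 3 fell, Vim by a rise of 1.51 and Car2 by a fall of 0.50. Mural cell genes, looked at because smooth muscle also expresses Rbpms, had 0 of 12 called by limma (2 at an unadjusted p under 0.05) and a median of 0.04. Of 12 endothelial genes 1 rose (Emcn), and limma called 0 genes of the lists for retinal pigment epithelium (12 genes), ciliary body with iris and cornea (11), blood (8) and oligodendrocytes (9), with 0 at an unadjusted p under 0.05 in each of these. The part of the amacrine, horizontal, cone and Mueller glia changes in the values of the 8 genes was not tested.

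Genes of injury and immune cells rose in the same retinas, where 6.76% of all genes tested were called higher over 6 eye pairs. Of 14 genes of the axon injury response 7 rose (5 with the mouse as a block), among them Ecel1, from 0.131 FPKM ± 0.114 to 4.03 ± 2.71 (SD, n = 3) without GCV, and Atf3, from 5.15 ± 1.51 to 22.9 ± 6.06. Of 10 genes of reactive glia and astrocytes 9 rose with a list median of 2.78, led by Edn2 at 3.81. Of 12 microglial genes 10 rose with a median of 2.35, and C1qa went from 16.9 FPKM ± 6.17 to 94.0 ± 17.1 without GCV. Of 12 leukocyte genes 8 rose, and of 14 lens genes 8 rose. Lens genes summed to 108 to 6705 FPKM in IOP retinas and to 7.24 to 129 FPKM in control retinas other than that of mouse 1, which had 6837 FPKM. The part of lens tissue in the values of the 8 genes was not tested.

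Mouse 4 differed between these groups of genes. Between its eyes the median log2 difference was 0.04 for the 8 identity genes and -0.14 for the other RGC markers, while it was 1.96 for microglial genes and 3.15 for genes of reactive glia. The median of the amacrine list was also smaller in mouse 4 than in the other mice, at -0.27 against -0.55 to -1.75, and that of the horizontal cell list was -0.14, against -0.07 in mouse 1 and -0.48 to -1.08 in the remaining mice. Its rod and cone lists had the lowest medians of the 6 mice, at -0.62 and -0.51, and its lens list the highest, at 5.13. Its IOP retina had 7.13 FPKM of Ecel1 against 0.203 in the control eye, and 16.5 FPKM of Atf3 against 3.88. Thy1 was at 209 FPKM in its IOP eye and 219 in its control eye. The IOP retina of mouse 4 was therefore high in injury and immune genes, as in the other mice, while 4 of the 8 identity genes were above and 4 below its control eye.

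**Figure D5:**
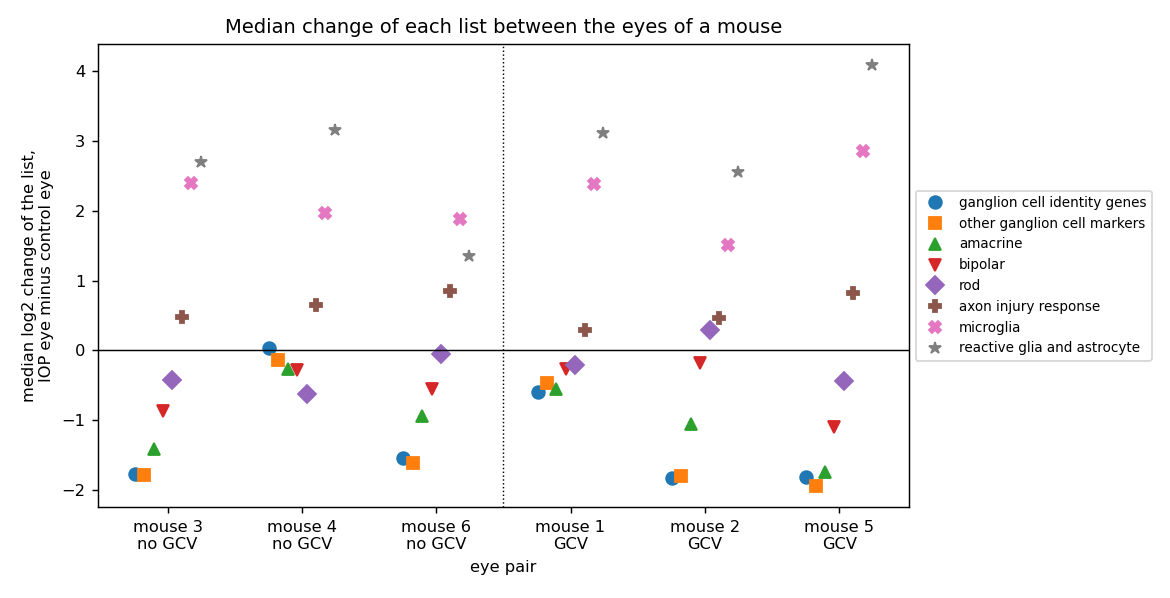
Median log2(FPKM + 1) difference between the IOP eye and the control eye (y axis) of each gene list (symbols) in each mouse (x axis). The 8 identity genes lie at 0.04 in mouse 4, where microglial and reactive glia genes lie at 1.96 and 3.15, and the identity genes lie below 0 in the other 5 mice.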

How the data were processed

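Retinal RNA of 12 libraries (TruSeq stranded mRNA kit, paired-end reads of 50 bases) was counted by the authors with HOMER over exons of RefSeq genes. The submitters' processing notes also list TopHat2, Bowtie2, Cufflinks, Cuffdiff and mm10, with no versions. The authors deposited values that were read as FPKM: most low values of the single-transcript genes examined lay near whole multiples of a gene-specific step, and whether they had been scaled between libraries is not given in the sources used here. Of 24340 rows, 5831 were at 0 throughout. The number of fragments per library was derived from the smallest steps in 2243 genes that have 1 transcript (1500 bases or longer, less 170 bases). The method was chosen after the values were seen. Of the low values used, 253 to 356 per library, 75.7% to 80.8% lay within 0.1 of a whole fragment. The number was picked to bring these same values close to whole fragments, so the share is not an independent check.

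Group means of log2(FPKM + 1) in the 4 groups were compared in limma (3.58.1, under R 4.3.3) with its variance trend, and p-values were adjusted by Benjamini-Hochberg over 18509 genes. Figures were drawn in matplotlib 3.10.9 with numpy 2.4.6 and pandas 2.3.3 (Python 3.11.15). The fit was tested on simulated data, and no result of that test is given here or used as support. The 8 genes, all lists and alternatives, and how genes were picked for naming, were chosen with earlier results of these data known. Named were all 8 genes, the 5 genes of smallest p and the 3 most abundant of each RGC list, the 2 of smallest p of every other list, the relatives of the 8, and the 8 genes most alike. Not every gene so named is printed, and a withheld item is not reported here. Lists were described by counts and medians without a set test.

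The mouse number marks both eyes of 1 animal, so the pairing comes from the labels. The correlation of the deviations of both eyes from their group means over 12910 genes was 0.207, 0.388 and 0.0998 for mice 3, 4 and 6 and -0.117, 0.132 and 0.166 for mice 1, 2 and 5. Alternatives were a pseudocount of 0.1, a minimum of 1 FPKM in 3 libraries, median-ratio scaling, a fit of the compared groups alone, a block for each mouse, no variance trend and each library left out. List names absent from the table or at 0 were Septin4, Opticin, Hbb-b2 and Olig2. Opticin is the protein name of Optc, which was in the same list and was tested.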

Additional observations from a re-analysis of the deposited data

How the results depend on the processing

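For the 8 genes, the IOP differences (without GCV, with GCV and over 6 eye pairs) were negative under every alternative run. With the mouse as a replicate block the number of the 8 genes called over 6 eye pairs went from 7 to 2, and all genes called went from 2258 to 1351 over 6 eye pairs (1252 higher and 1006 lower against 894 and 457), from 306 to 75 without GCV and from 334 to 144 with GCV. The block made no call among the 8 genes without GCV, with GCV or for the interaction. It was not fitted to the comparisons of GCV between mice. With a pseudocount of 0.1, 464 genes were called without GCV, 535 with GCV and 1 for GCV in control retinas, and the interaction turned positive for Pou4f2 (0.23), Pou4f3 (0.33) and Isl2 (0.0077). With only the groups compared, 185 genes were called without GCV, 7 with GCV and 4 for GCV in control retinas. With a minimum of 1 FPKM in 3 libraries, 1 of the 8 genes (Pou4f3) was called with GCV, and Slc17a6 was called over 6 eye pairs (limma adjusted p = 0.0451), where 457 and 2645 of 13411 genes were called, 38 and 1340 of them lower. The causes were not tested.

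With each library left out in turn, an arm of 2 retinas remained. Over 6 eye pairs 1 to 8 of the 8 genes were called and 788 to 4499 genes in all, the highest without the IOP retina of mouse 4. Without GCV, 0 to 8 of the 8 and 20 to 2432 genes were called, and with GCV 62 to 697 genes, with none of the 8. The interaction gave 0 to 2 genes, GCV in IOP retinas 0 to 4 and GCV in control retinas 0 to 4. The interaction ranged from -1.10 to -0.049 for Pou4f1, -0.38 to 0.67 for Pou4f2, -0.56 to 0.071 for Pou4f3, -0.40 to 0.34 for Isl2, -0.54 to 0.33 for Rbpms, -0.75 to 0.21 for Ebf1, -0.87 to 0.15 for Ebf3 and -0.66 to 0.62 for Slc17a6, and for all but Pou4f1 it turned positive without the IOP retina of mouse 4. GCV in IOP retinas ranged from -0.73 to 0.33 for Pou4f1, -0.20 to 0.85 for Pou4f2, -0.041 to 0.59 for Pou4f3, -0.11 to 0.63 for Isl2, -0.28 to 0.59 for Rbpms, -0.41 to 0.55 for Ebf1, -0.56 to 0.46 for Ebf3 and -0.16 to 1.13 for Slc17a6. GCV in control retinas ranged from -0.034 to 0.34 for Pou4f2.

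Groups of 3 retinas, an uneven spread (median SD of log2 values 0.343 in IOP against 0.119 in CTRL retinas) and few fragments limit these results: at the lowest depth, Pou4f2 in the IOP retina of mouse 6 rests on 6.99 estimated fragments.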
